A study of Mus musculus with 4 samples.

Results

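The genes of the ON bipolar cell response were examined in eyes of C3H/f+/+ mice with and without morning light. With earlier results of these data known, 10 genes of the 22863 in the table of gene values were chosen by symbol. The choice followed textbook knowledge of the mGluR6 to TRPM1 cascade and of rod bipolar cells, and each symbol matched 1 row. The 10 genes comprise the receptor Grm6, the channel Trpm1, the G protein subunit Gnao1, the regulators Rgs7, Rgs11 and Gpr179, the synaptic leucine-rich repeat proteins Nyx and Lrit3, and the rod bipolar genes Prkca and Pcp2. All 10 passed the filter on low values (at least 10 in at least 2 samples), which left 17784 genes to test.

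In the dark, photoreceptors release glutamate, which binds mGluR6 on the dendritic tips of ON bipolar cells, and the Go protein then holds the cation channel TRPM1 closed. When light lowers glutamate release, the G protein is switched off with the help of RGS proteins, TRPM1 opens and the cell depolarizes. This response generates the b-wave of the electroretinogram, and loss of GRM6, TRPM1, NYX, GPR179 or LRIT3 in people causes congenital stationary night blindness.

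RNA-seq was performed on 4 pooled samples, 2 per condition, to ask how light history alters transcripts in the eye at the same hour of the day. The subjective day mice were taken at CT 6 after 18 hours in darkness (a longer time in darkness is also given for this comparison in the description of the study), and the objective day mice at ZT 6 after morning light followed by 1 hour in darkness. In each sample the eyes of 1 male and 1 female mouse were pooled, 4 in all, and all mice were C3H/f+/+, which make melatonin and do not carry the retinal degeneration allele of the C3H background. The ages of these mice were not given in the sources used here, and no other genotype or agent was used. The tissue was the back of the eye (sclera, choroid, RPE and retina) without lens and anterior segment, so the values below are averages over many cell types. Fewer cells of a type and less RNA per cell cannot be told apart in such samples.

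The values are counts per gene, scaled by the authors so that the libraries have a common size, and they summed to between 33278417 and 35236783 per sample. The sequencing depth itself cannot be read from them. Pearson's correlation of log2 values across genes was 0.991 between the subjective day samples and 0.993 between the objective day samples. Markers of rods, bipolar cells, Müller glia, pigment cells, skeletal muscle and the ocular surface were all measured. The summed level of 5 skeletal muscle markers was 38668 to 42922 adjusted counts over the 4 samples. That of 9 bipolar markers was 40700 to 43289 and that of 9 pigment cell genes 15344 to 20622. Within objective day, the summed level of the ocular surface markers was 2798 in the first and 5129 in the second sample.

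Across the series, the difference between the conditions followed the base composition of the transcripts. Spearman's correlation between the log2 fold change and the GC content of the longest coding transcript was 0.59 across 17536 genes, which are not independent replicates. The fold change of each of the 10 genes, and of each other gene that passed the test, is therefore followed by its value after this trend was removed, and the part of GC content in the differences was not tested.

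Promoter sequences were examined for 9 of the 10 genes, matched by symbol to RefSeq (GRCm38.p6), as the 250 bases before each of 13 annotated starts. They are shown for Grm6, the receptor of the cascade, for both starts of the channel Trpm1, and for Rgs7, the gene with the highest fold change of the 10. Capitals mark a motif from the searched set, and each line reads 5′ to 3′ toward the start on the strand of the gene.

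Grm6, chr11:50850435-50850684, plus strand: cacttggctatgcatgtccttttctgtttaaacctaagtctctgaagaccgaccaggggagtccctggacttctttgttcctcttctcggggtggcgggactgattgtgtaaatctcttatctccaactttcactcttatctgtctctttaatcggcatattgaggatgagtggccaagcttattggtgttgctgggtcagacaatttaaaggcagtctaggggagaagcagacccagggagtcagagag
Trpm1, first start, chr7:64153585-64153834, plus strand: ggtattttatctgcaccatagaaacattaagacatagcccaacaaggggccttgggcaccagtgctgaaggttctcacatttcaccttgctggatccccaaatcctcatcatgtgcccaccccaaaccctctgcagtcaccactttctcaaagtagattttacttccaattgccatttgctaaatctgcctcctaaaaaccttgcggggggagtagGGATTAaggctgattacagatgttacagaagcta
Trpm1, second start, chr7:64185209-64185458, plus strand: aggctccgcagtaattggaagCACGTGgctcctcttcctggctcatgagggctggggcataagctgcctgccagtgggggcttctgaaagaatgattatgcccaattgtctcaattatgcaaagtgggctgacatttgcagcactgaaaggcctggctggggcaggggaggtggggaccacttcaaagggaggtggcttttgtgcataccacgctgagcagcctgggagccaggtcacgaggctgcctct
Rgs7, chr1:175492546-175492795, minus strand: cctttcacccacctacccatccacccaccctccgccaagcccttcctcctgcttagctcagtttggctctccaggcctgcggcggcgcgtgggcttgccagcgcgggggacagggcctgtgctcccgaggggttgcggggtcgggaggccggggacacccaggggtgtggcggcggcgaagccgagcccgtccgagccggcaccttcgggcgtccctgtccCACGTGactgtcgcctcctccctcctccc

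The motifs reported, searched on both strands, were TAATCC (bound by Otx2 and Crx type factors), CACGTG (the E-box of clock factors), GCGTGGGCG and GCGGGGGCG (Egr type) and TGACGTCA (the cAMP response element). None of these motifs contains another. TAATCC was in 1 of the 13 windows, that of the first Trpm1 start, where it lies on the opposite strand (GGATTA in capitals) 34 bases before the start, compared with 6.25% of all 32851 windows. CACGTG was in 2 windows, 29 bases before the Rgs7 start and 229 bases before the second Trpm1 start, compared with 6.02% of all windows. TGACGTCA (1.55% of all windows), GCGTGGGCG (0.536%) and GCGGGGGCG (2.57%) were in none of the 13 windows. A match describes these letters and is not a measured binding site.

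Levels can be compared between genes only per length, and adjusted counts were divided by the length of the longest coding transcript for this purpose. Gnao1 had the highest level, with 3060 ± 241 adjusted counts per kb (SD over all 4 samples), followed by Pcp2 with 2906 ± 222 and Trpm1 with 2625 ± 195. The ranges of Gnao1 and Pcp2 overlapped, as did those of Pcp2 and Trpm1. Prkca stood below these, with 1589 ± 98.7 per kb, and its range was separate from those of both neighbours in the order. Grm6 had 996 ± 78.5 and Gpr179 871 ± 42.3 per kb, and their ranges overlapped. Below them, and each separate from the next, came Rgs11 with 735 ± 13.6, Lrit3 with 617 ± 46.1, Rgs7 with 373 ± 33.6 and Nyx with 229 ± 6.94 per kb. The span from Gnao1 to Nyx was 13.4 times. The SD and the ranges cover the samples only and not the choice of transcript length, so the order holds for these lengths. Gnao1 and Rgs7 are used by many neurons of the retina and Trpm1 also by pigment cells, so their levels are not those of ON bipolar cells alone.

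None of the 10 genes passed an adjusted p of 0.05 between objective and subjective day (limma with Benjamini-Hochberg adjustment), compared with 8.51% of all genes tested, with 1325 lower and 189 higher. At an unadjusted p of 0.05, 5 of the 10 passed (Grm6, Trpm1, Gnao1, Rgs7 and Prkca), compared with 25.4% of all genes. This count was 1 without the first and 0 without the second objective day sample, compared with 14.5% and 16.9% of all genes. It was 3 without the first and 2 without the second subjective day sample, compared with 30.8% and 21.5% of all genes. The values of the conditions did not overlap for 7 of the 10 genes, compared with 56.1% of all genes. Objective day was the higher in 6 of these, Grm6, Trpm1, Gpr179, Lrit3, Gnao1 and Rgs7 (27.9% of all genes), and the lower in 1, Prkca (28.2% of all genes). The median log2 fold change, objective over subjective day, was 0.14 over the 10 genes and 0.015 over all genes. An exact permutation test of 2 samples against 2 cannot give a two-sided p below 0.333, so single genes were tested with the fit across all genes only. The smallest absolute log2 fold change among the 1514 genes that passed the adjusted threshold was 0.24, above that of each of the 10 genes, so differences of their size did not pass anywhere in the table.

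**Figure D1:**
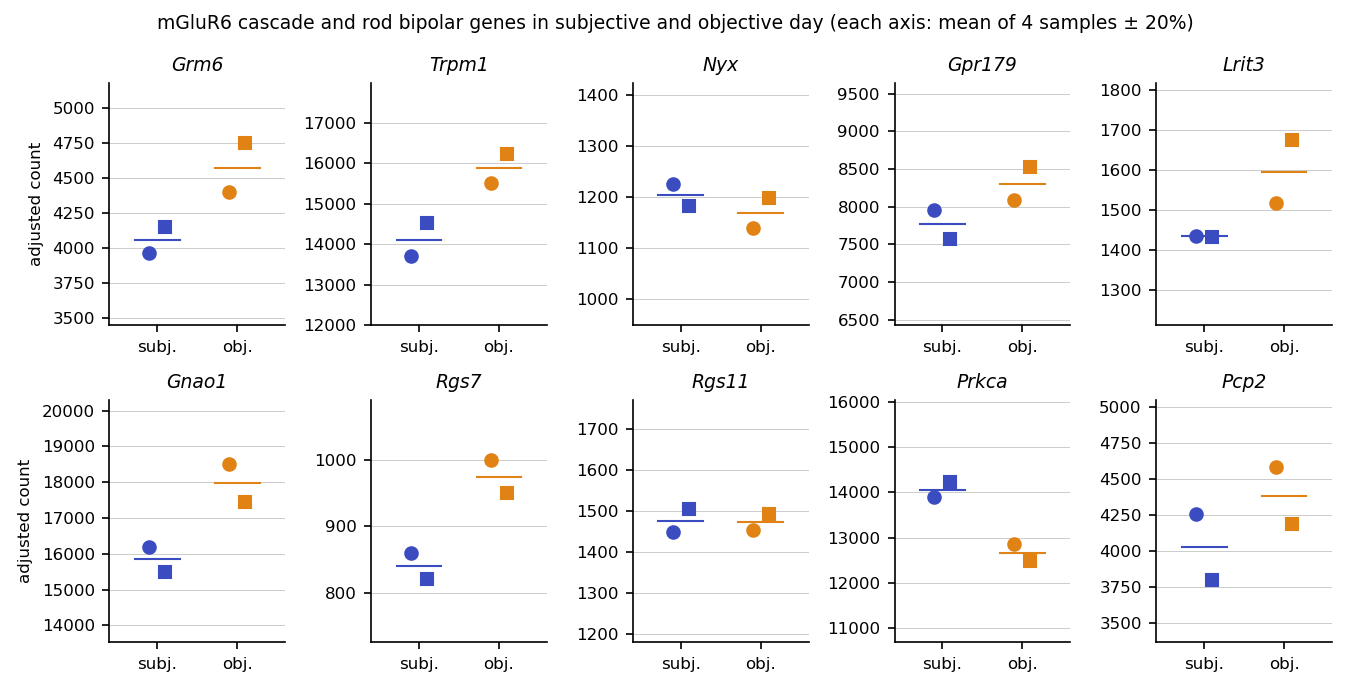
Adjusted count of each of the 10 genes (vertical axis, linear, spanning 20% to either side of the gene's mean and not starting at 0) in subjective (subj., blue) and objective day (obj., orange). Circles are replicate 1, squares replicate 2 and lines the means of the 2 samples. Orange points lie above blue points without overlap in 6 genes and below in Prkca.

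The receptor Grm6 (ENSMUSG00000000617, chr11:50850685-50866208, plus strand, GRCm38) had 3964 and 4148 adjusted counts in the subjective day samples and 4398 and 4749 in the objective day samples. Both objective day samples were above both subjective day samples. The means were 4056 ± 130.1 and 4573 ± 249 (SD, n = 2 each), a difference of 12.8%, and the log2 fold change was 0.17 ± 0.065 (SE, 95% interval 0.019 to 0.33, adjusted p = 0.153). With the GC trend removed it was 0.076 (adjusted p = 0.713).

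Trpm1 (ENSMUSG00000030523, chr7:64153835-64269775, plus strand) encodes the channel at the end of the cascade. Its adjusted counts were 13697 and 14527 in subjective day, compared with 15506 and 16241 in objective day, with the second objective day sample the highest, as for Grm6. The means were 14112 ± 587 and 15874 ± 519.7, a difference of 12.5%. Its log2 fold change was 0.17 ± 0.070 (95% interval 0.0070 to 0.33, adjusted p = 0.180) and 0.12 with the GC trend removed (adjusted p = 0.563). Pigment cells also express Trpm1, and the summed level of the 9 pigment cell genes was 15344 to 16961 in subjective day, against 17001 to 20622 in objective day, with no overlap. Of the 9 genes, 3 (Dct, Mlana and Slc45a2) were higher without overlap in objective day, 1 (Mitf) was lower without overlap, and 5 overlapped. Without the melanin enzyme gene Dct (5938 and 5998 against 8541 and 7028) the sums overlapped, at 11023 and 9347 against 12081 and 9973. Within each condition the sample with the higher pigment cell sum had the lower Trpm1 value, an order of only 2 samples each. The part of pigment cells in the Trpm1 values was not tested.

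Gnao1 (ENSMUSG00000031748, chr8:93809966-93969388, plus strand) encodes the alpha subunit of Go, which carries the signal from mGluR6 to TRPM1. It had 16186 and 15501 adjusted counts in subjective day, compared with 18507 and 17435 in objective day, again with no overlap. The means were 15844 ± 484 and 17971 ± 758, a difference of 13.4%. Its log2 fold change was 0.18 ± 0.071 (95% interval 0.016 to 0.35, adjusted p = 0.162) and 0.079 with the GC trend removed (adjusted p = 0.726). The receptor, its G protein and the channel thus had log2 fold changes between 0.17 and 0.18, none of which passed the test.

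The regulators that end the G protein signal differed in their values. Rgs7 (ENSMUSG00000026527, chr1:175059087-175492500, minus strand), a GTPase-activating protein for Go, had 859.7 and 821 adjusted counts in subjective day, compared with 999 and 950.3 in objective day. Its means were 840 ± 27.3 and 975 ± 34.7, and the difference of 16% was the highest of the 10 genes. The log2 fold change was 0.21 ± 0.073 (95% interval 0.043 to 0.38, adjusted p = 0.122). Rgs7 has a GC content of 47.6%, below the median of 50.1% of all genes, and with the trend removed its log2 fold change was 0.26 (95% interval 0.080 to 0.44, adjusted p = 0.212). This value depended on the transcript used for GC content: with the longest transcript of any kind, which is non-coding in Rgs7, it was 0.91 (adjusted p = 0.0129).

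Rgs11 (ENSMUSG00000024186, chr17:26202951-26211324, plus strand), which acts beside Rgs7 in the same cells, had 1449 and 1504.5 adjusted counts in subjective day, compared with 1455 and 1492 in objective day. The samples of the conditions overlapped, and the log2 fold change was -0.0033 ± 0.064 (adjusted p = 0.983), with a 95% interval from -0.15 to 0.15. With the GC trend removed it was -0.11 (adjusted p = 0.581). The difference between the fold changes of Rgs7 and Rgs11 was not tested.

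Gpr179 (ENSMUSG00000070337, chr11:97332109-97352077, minus strand), an orphan receptor that anchors the RGS proteins at the dendritic tips, had 7957 and 7576 adjusted counts in subjective day, compared with 8082 and 8521 in objective day. The means were 7766 ± 269.9 and 8301 ± 311, a difference of 6.89%. The groups did not overlap, but the lowest objective day sample was close to the highest subjective day sample. The log2 fold change was 0.096 ± 0.064 (95% interval -0.054 to 0.25, adjusted p = 0.395) and -0.0084 with the GC trend removed (adjusted p = 0.974). It was 0.058 without the second objective day sample and 0.061 without the second subjective day sample.

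Nyx and Lrit3 encode leucine-rich repeat proteins that are needed for TRPM1 to reach the dendritic tips. Nyx (ENSMUSG00000051228, chrX:13466110-13489313, plus strand) had 1226 and 1183.5 adjusted counts in subjective day, compared with 1140.0 and 1198 in objective day. These values overlapped, and the log2 fold change was -0.044 ± 0.068 (95% interval -0.20 to 0.12, adjusted p = 0.732), or -0.13 with the GC trend removed (adjusted p = 0.50). It ranged from -0.080 to -0.0079 with 1 sample left out, the extremes being those without the second and the first objective day sample. Lrit3 (ENSMUSG00000093865, chr3:129787881-129804030, minus strand) had 1434 and 1433 adjusted counts in subjective day, compared with 1517 and 1673 in objective day. Its subjective day samples were nearly equal, and the spread lay between the objective day samples. The log2 fold change of Lrit3 was 0.15 ± 0.071 (95% interval -0.014 to 0.32, adjusted p = 0.232), or 0.11 with the GC trend removed (adjusted p = 0.592). It was 0.082 without the second and 0.22 without the first objective day sample.

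Prkca (ENSMUSG00000050965, chr11:107933387-108343928, minus strand) encodes protein kinase C alpha, the standard marker of rod bipolar cells. Its adjusted counts were 13891 and 14228 in subjective day, compared with 12853 and 12479 in objective day, so both objective day samples were the lower. The means were 14060 ± 238 and 12666 ± 264, a difference of -9.91%. This gave a log2 fold change of -0.15 ± 0.064 (95% interval -0.30 to -0.00091, adjusted p = 0.194). Prkca has the lowest GC content of the 10 genes, 46.4%, and with the trend removed its log2 fold change was -0.061 (adjusted p = 0.778).

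Pcp2 (ENSMUSG00000004630, chr8:3623371-3625545, minus strand), a modulator of Go found in rod bipolar and some ON cone bipolar cells, had 4254 and 3801 adjusted counts in subjective day, compared with 4584 and 4184 in objective day. In both conditions the first sample was the higher, and the conditions overlapped. The log2 fold change was 0.12 ± 0.078 (95% interval -0.060 to 0.31, adjusted p = 0.371), or 0.084 with the GC trend removed (adjusted p = 0.740). With 1 sample left out it was 0.042 without the second and 0.20 without the first subjective day sample, and 0.057 without the first and 0.19 without the second objective day sample. The exons of Pcp2 share 941 bases with those of Pet100 on the opposite strand, which had 306 to 361 adjusted counts, and since the strand setting of the counting was not given in the sources used here, reads from the shared bases cannot be told apart. Shorter overlaps of the same kind are those of Grm6 with Gm12660 (599 bases, 85.9 to 119 adjusted counts), Rgs11 with Arhgdig (138 bases, 184 to 196) and Prkca with Apoh (30 bases, 7.63 to 9.99). Exons of Gnao1 share 284 bases with 4930488L21Rik and those of Trpm1 share 12 with Gm44722, for which no values were analysed here.

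**Figure D2:**
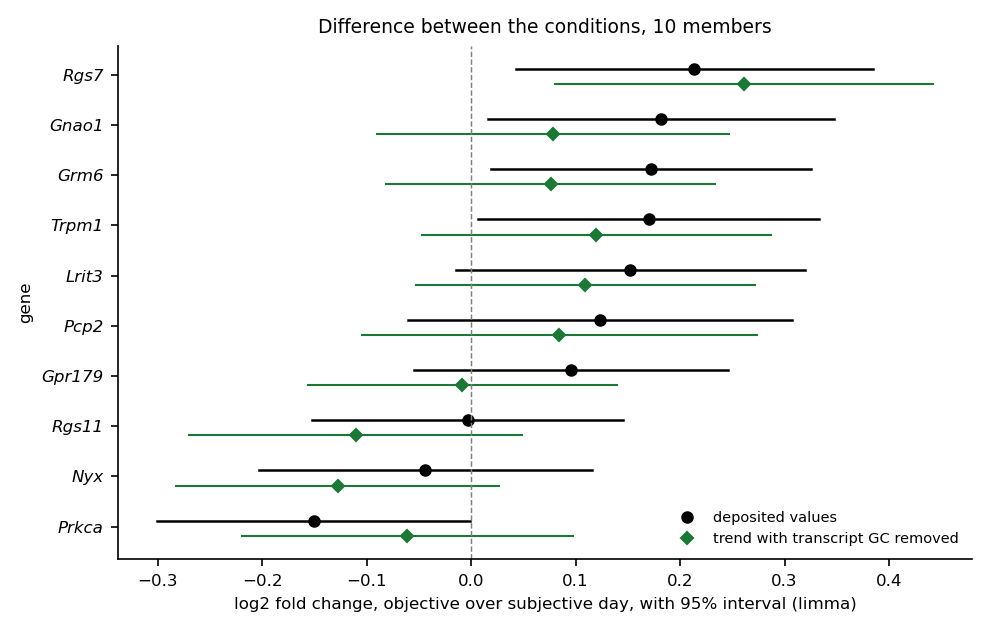
Log2 fold change of each of the 10 genes, objective over subjective day (horizontal axis), with its 95% interval from limma, for the deposited values (black circles) and with the trend with transcript GC content removed (green diamonds). Without the correction the intervals of Rgs7, Gnao1, Grm6 and Trpm1 lie above 0 and that of Prkca below it, and with it only the interval of Rgs7 lies apart from 0. None of the 10 genes passed an adjusted p of 0.05 in either fit.

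The 95% intervals of the deposited values ran, over the 10 genes, from 0.812-fold, the lower limit for Prkca, to 1.31-fold, the upper limit for Rgs7. With the GC trend removed, again none of the 10 passed the test, compared with 0.907% of the 17536 genes whose GC content was known, and 1 of the 10, Rgs7, had an unadjusted p under 0.05, compared with 12.4% of these genes. The 10 genes' median log2 fold change was then 0.077, compared with 0.018 over all genes. The 10 genes had a median GC content of 52.5%, above that of all genes.

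**Figure D3:**
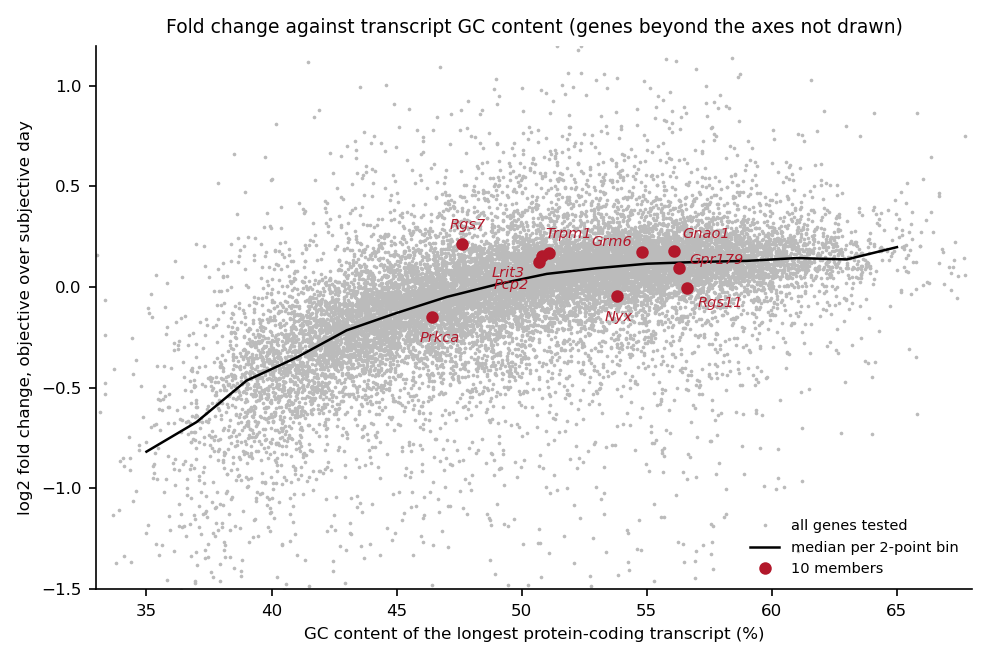
Log2 fold change, objective over subjective day (vertical axis), against the GC content of the longest coding transcript in percent (horizontal axis), for all genes tested (gray) and the 10 genes (red). The black line, the median in bins of 2 percentage points, rises from -0.82 in the lowest bin drawn to 0.20 in the highest, and Nyx, Rgs11, Prkca and Gpr179 lie below it while the other 6 lie above.

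Among 15 partners of the cascade, which include the beta and gamma subunits, RGS anchors and synaptic adhesion proteins, none passed the test in either direction and 3 had an unadjusted p under 0.05. Their median log2 fold change was 0.045, with a range from -0.25 for Rgs7bp, a membrane anchor of RGS7 (adjusted p = 0.0789), to 0.17 for Egflam, which encodes the matrix protein pikachurin of the photoreceptor synapse (adjusted p = 0.167). Rgs9bp, which anchors RGS proteins in photoreceptors and ON bipolar cells, had the highest adjusted count, not divided by length, with 31942 and 31423 adjusted counts in subjective day, compared with 31961 and 30422 in objective day. Cacna2d4, a calcium channel subunit of the photoreceptor terminal, followed with 16665 and 17545 in subjective day, compared with 18360 and 18339 in objective day. The log2 fold changes of these genes were -0.023 (adjusted p = 0.886) and 0.10 (adjusted p = 0.399). Rgs7bp has a GC content of 42.6%, and with the trend removed its log2 fold change was 0.013.

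Other markers of rod and ON bipolar cells moved in both directions. Of 15 tested, 2 rose and 2 fell in objective day, and their median log2 fold change was 0.044. Bhlhe23, a transcription factor of rod bipolar cells, rose from 905 and 863 adjusted counts to 1159 and 1088 (log2 fold change 0.35 ± 0.073, adjusted p = 0.0303). Gabrr2, a subunit of the GABA-C receptor of bipolar terminals, rose from 1867 and 1708 to 2166 and 2193 (0.29 ± 0.068, adjusted p = 0.0444). For both genes every objective day sample was above every subjective day sample.

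Cabp5, a calcium-binding protein of rod bipolar and some cone bipolar cells, fell from 4252 and 4004 adjusted counts to 3327 and 3344 (log2 fold change -0.31 ± 0.061, adjusted p = 0.0242). Isl1, a transcription factor of ON bipolar and other inner retinal cells, fell from 2539 and 2558 to 2136 and 2131 (-0.26 ± 0.058, adjusted p = 0.0380). With the GC trend removed, none of these 4 genes passed the test: the log2 fold changes were 0.24 for Bhlhe23, 0.21 for Gabrr2, -0.19 for Cabp5 and -0.14 for Isl1, with adjusted p between 0.206 and 0.391. The 2 genes that rose have a GC content of 55.8% and 52.8%, and those that fell 45.6% and 45.7%.

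The summed level of 9 markers of bipolar cells of both ON and OFF types, some of which mark only certain types or also other cells, was 40700 to 43289 adjusted counts in subjective day, against 41690 to 42257 in objective day, so the conditions overlapped. None of the 9 rose and 2, Cabp5 and Isl1, fell. Of 10 markers of OFF cone bipolar cells, which use ionotropic receptors in place of mGluR6, none passed the test (3 at an unadjusted p under 0.05), and their median log2 fold change was 0.0056. The OFF cone bipolar marker with the highest adjusted count, the kainate receptor subunit Grik1, had 2911 and 2928 adjusted counts in subjective day, compared with 2496 and 2708 in objective day (log2 fold change -0.17, adjusted p = 0.159). Pcdh17 had the next highest adjusted count (log2 fold change 0.0015, adjusted p = 0.992). After removal of the GC trend 1 of the 10 passed the test, Neto1, with a value of 0.54 (adjusted p = 0.0446).

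Relatives of the cascade proteins were counted as well. Among the 7 other metabotropic glutamate receptors, 1 fell, Grm5 (log2 fold change -0.49 ± 0.090, adjusted p = 0.0189), or -0.23 with the GC trend removed (adjusted p = 0.313). Grm8, with the highest adjusted count of the 7, had a log2 fold change of -0.20 (adjusted p = 0.122). Per length, Grm8 had 243 adjusted counts per kb compared with 996 for Grm6. Among the 7 other TRPM channels, 1 fell, Trpm7, a channel with a kinase domain (log2 fold change -0.63 ± 0.076, adjusted p = 0.00558), or -0.19 with the trend removed (adjusted p = 0.245). Trpm3, with the highest adjusted count among them, differed by 0.054 on the log2 scale (adjusted p = 0.607).

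Of the 7 other G protein alpha subunits, 2 fell. These were the inhibitory subunits Gnai1 (log2 fold change -0.39 ± 0.085, adjusted p = 0.0329) and Gnai3 (-0.28 ± 0.070, adjusted p = 0.0496). With the GC trend removed their values were -0.13 (adjusted p = 0.566) and 0.037 (adjusted p = 0.898), a change of sign for Gnai3. A further inhibitory subunit, Gnai2, had the highest adjusted counts of the 7, with 7307 and 6948 in subjective day, compared with 8519.6 and 7827 in objective day, and did not pass the test (log2 fold change 0.20 ± 0.069, adjusted p = 0.129). None of 7 other protein kinase C isoforms passed the test (1 at an unadjusted p under 0.05). The isoforms with the highest adjusted counts, Prkce and Prkcz, had log2 fold changes of -0.075 (adjusted p = 0.478) and 0.13 (adjusted p = 0.208).

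**Figure D4:**
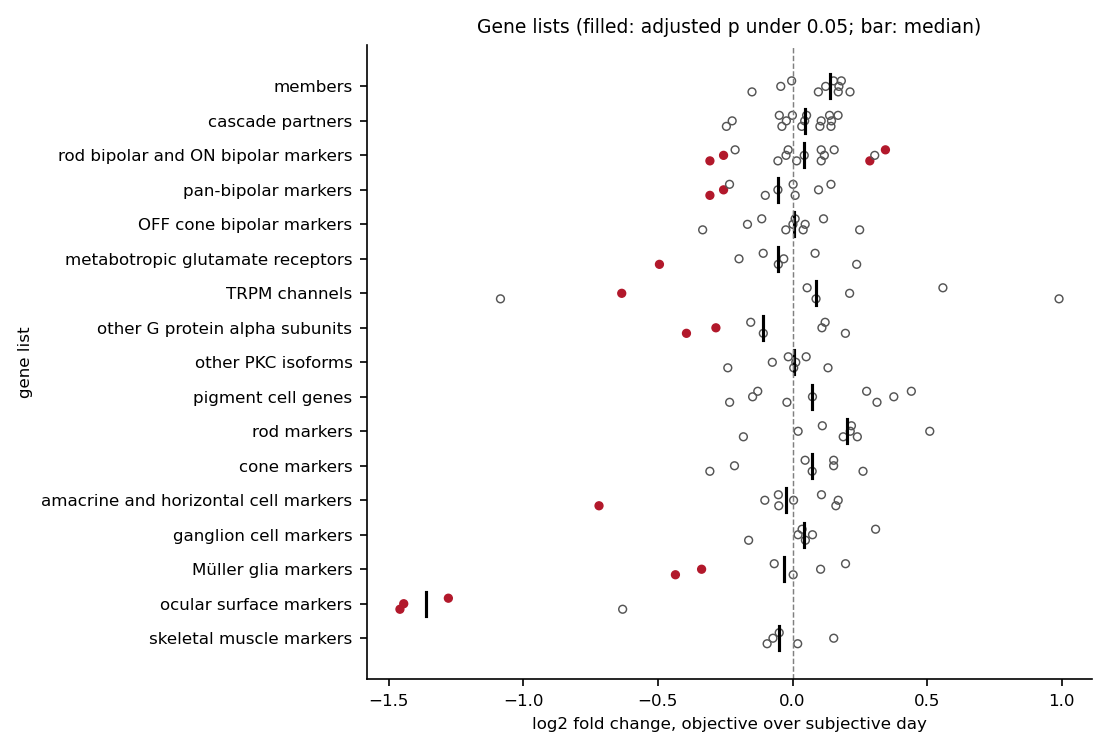
Log2 fold change, objective over subjective day (horizontal axis), of each gene in the 10 genes (members) and in 16 further lists, 1 row per list. Filled circles passed an adjusted p of 0.05 in limma and black bars are list medians. None of the 10 genes is filled, and the 3 filled ocular surface markers lie between -1.46 and -1.28, with a list median of -1.36.

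Markers of other cell types in the tissue also differed between the samples. The summed level of 8 rod markers was 1002500 to 1138000 adjusted counts in subjective day, against 1178200 to 1313400 in objective day. The largest part of this sum was Gnat1, with 649590 and 584720 in subjective day, against 761670 and 671400 in objective day. Sag had 128910 and 108480 in subjective day, against 172930 and 164010 in objective day. None of the 8 passed the test (2 at an unadjusted p under 0.05), their median log2 fold change was 0.20 (range -0.18 to 0.51), and the highest adjusted counts were those of Gnat1 and Sag. Of 4 tested ocular surface markers of the 5 listed, 3 keratins fell (Krt5, Krt14 and Krt15, with the highest adjusted counts in Krt15 and Krt5), with log2 fold changes of -1.46 to -1.28, or -1.56 to -1.39 with the GC trend removed, where all 3 again passed, and the summed level of the list was 9886 to 10295 in subjective day, against 2798 to 5129 in objective day. The subjective day samples thus held more keratin RNA of the ocular surface, and its part in the values of the 10 genes was not tested.

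The remaining lists are given by their counts, each with the 2 genes of highest adjusted count, not divided by length. None of 9 pigment cell genes passed the test (3 at an unadjusted p under 0.05, median 0.074, range -0.23 to 0.44, Dct and Tyrp1). Once the GC trend was removed, the pigment genes had a median of 0.19, 7 of the 9 were above 0 and 1 passed the test, Tyr, which turned from -0.15 to 0.87 (adjusted p = 0.0219). None of 7 cone markers (2 unadjusted, median 0.073, range -0.31 to 0.26, Opn1sw and Gnat2), 6 ganglion cell markers (1 unadjusted, median 0.042, range -0.16 to 0.31, Nefl and Sncg) or 5 skeletal muscle markers (0 unadjusted, median -0.049, range -0.094 to 0.15, Acta1 and Tnnt3) did so. Of 8 amacrine and horizontal cell markers 1 fell, Calb1 (median -0.024, range -0.72 to 0.17, Tfap2b and Gad1), and of 6 Müller glia markers 2 fell, Aqp4 and Slc1a3 (median -0.033, range -0.44 to 0.20, Glul and Apoe). Without the GC trend none of these 3 genes passed the test, and their log2 fold changes went from -0.72 to 0.070 for Calb1 (adjusted p = 0.836), from -0.44 to -0.089 for Aqp4 (adjusted p = 0.641) and from -0.34 to -0.26 for Slc1a3 (adjusted p = 0.110). Calb1, Aqp4, Slc1a3, Krt14, Neto1, Tyr, Mlana, Slc45a2, Mitf, Gnai2, Rgs7bp and Egflam were chosen after their values were seen. Gnao1, Rgs7 and Prkca are also used by amacrine cells, and the summed level of the amacrine and horizontal cell markers was 22377 to 22487 in subjective day, against 21869 to 22664 in objective day.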

How the data were processed

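Poly-A RNA from 4 samples of mouse eyes was sequenced. According to the methods of the study and the submitters' processing notes, the authors used CASAVA 1.8, aligned reads with TopHat2 2.0.9 and Bowtie2 2.1.0 to Ensembl release 72, counted genes with HTSeq and ran edgeR on the comparison. The deposited values are 1 signal column per sample: gene counts, with decimals, that the authors brought to a shared library size. The adjustment, the filter on low counts and the strand setting are not given in the sources used here. The authors' deposited comparison (log2 fold change, log2 CPM, p-value and FDR) was not used.

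Because the values are not raw counts, no count test was applied. Log2(value + 1) was compared with limma 3.58.1 in R 4.3.3 for genes with at least 10 in at least 2 samples, with a variance prior that followed the mean and Benjamini-Hochberg adjustment at 0.05. Fold changes on this scale slightly understate those of low genes. With 2 samples per condition, the number of samples limits the precision.

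GC content, length and coordinates came from the longest protein-coding transcript in GENCODE M21 (GRCm38), and were found for 98.6% of tested genes. In each sample, the trend with GC was removed by a local regression (span 0.3), which takes with it any biology that tracks GC. The fit was checked on simulated data. Promoters were read from RefSeq. Tables and figures were made with Python 3.11.15, pandas 2.3.3 and matplotlib 3.10.9.

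The 10 genes and the other lists were chosen with earlier results of these data known. All 10 genes are named, together with genes of the partner, bipolar and family lists past the threshold or, where fewer than 2 passed, also the 2 with the highest mean value. Some items that this rule names are not reported here. Lists of other cell types are given by counts and their 2 genes of highest mean value. Alternatives covered the scaling, filter, pseudocount, variance prior, replicate block, GC correction and each sample left out. The GC correction by the longest transcript of any kind was added after seeing the data.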

Additional observations from a re-analysis of the deposited data

How the results depend on the processing

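None of the 10 genes passed an adjusted p of 0.05 (limma) in the main comparison or in 12 of 15 alternatives, each sample left out included. The first exception was the replicate block, with 4 genes (Grm6 adjusted p = 0.0337, Trpm1 0.0321, Gnao1 0.0268, Rgs7 0.0484), compared with 20.3% of all genes. The replicate block with the GC trend removed gave 1 gene (Rgs7, 0.0460), compared with 5.45% of all genes. The GC trend of the longest transcript of any kind also gave 1 gene, compared with 1.27% of all genes. That gene was again Rgs7, whose longest transcript is non-coding and AT-rich (log2 fold change 0.91, adjusted p = 0.0129). The numbers 1 and 2 are not said to pair the samples. Across the genes tested, the deviations of the first samples from their condition means had a Pearson's correlation of 0.319 between the conditions. With 2 samples per condition, the second samples give the same value. Of 150 fold changes of the 10 genes under alternatives, 137 kept their direction and side of the threshold, 6 passed it and 7 changed sign. Nyx became 0.034 and Rgs11 0.075 when scaled to the bipolar markers, Gpr179 became -0.0084 with the GC trend removed, with or without the block, and -0.0097 with the GC trend of the longest transcript of any kind, and Rgs11 ranged from -0.030 to 0.024 with 1 sample left out. Over all genes, 1514 calls became 159 with the GC trend removed (223 by the longest transcript of any kind), 3613 with the block, 956 with both and 0 with a variance prior without trend, where 3586 had an unadjusted p under 0.05. With 1 sample left out the calls ranged from 664 (without objective day replicate 2, and 736 without replicate 1) to 2557 (without subjective day replicate 1). Scaling to the bipolar markers, whose own difference of -0.078 on the log2 scale was taken out of every gene, gave 898 lower and 768 higher genes, compared with 1325 and 189. All 10 genes shifted upward with it, Rgs7 to 0.29 (adjusted p = 0.0528) and Prkca to -0.073 (adjusted p = 0.555). At an unadjusted p of 0.05, 7 of the 10 then passed, as did 5604 of 17784 genes. Of the 124 other listed genes, 14 were called in the main comparison, 5 with the GC trend removed, 6 by the longest transcript of any kind, 35 with the block, 0 with the prior without trend, and 6 to 27 with 1 sample left out. The causes of these changes were not tested.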
